A study of Mus musculus with 4 samples.

Results

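The smooth muscle contractile genes described here are Acta2, Tagln, Cnn1, Myh11, Myl9, Tpm1, Tpm2 and Des, 8 of the 32285 genes in the deposited matrices. They were chosen by name, as the genes that build and regulate the contractile filaments of smooth muscle, and each symbol matched 1 row of the gene table. They were followed in fibroblast-like and mural-like cells of mouse skin. On the mm10 genome, by the GENCODE vM21 annotation, Acta2 lies at chr19:34241090-34255590, Tagln at chr9:45929619-45936058, Cnn1 at chr9:22099216-22109630, Myh11 at chr16:14194535-14291372, Myl9 at chr2:156775420-156781658, Tpm1 at chr9:67022590-67049406, Tpm2 at chr4:43514711-43523765 and Des at chr1:75360329-75368579, all of them protein-coding. Acta2 and Tagln are also the usual transcripts by which activated fibroblasts, called myofibroblasts, are recognised in healing skin.

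In smooth muscle, thin filaments of alpha smooth muscle actin (Acta2), wound with tropomyosins (Tpm1, Tpm2) and bound by transgelin (Tagln) and calponin (Cnn1), slide along thick filaments of smooth muscle myosin (heavy chain Myh11, light chain Myl9), and desmin (Des) forms the intermediate filaments that hold the apparatus in place. Mural cells, the smooth muscle cells of arterioles and the pericytes of capillaries, wrap the blood vessels of skin. Fibroblasts can build actin stress fibres with some of the same proteins when they become myofibroblasts under transforming growth factor beta and tension, but smooth muscle myosin heavy chain is regarded as largely restricted to smooth muscle.

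Transcripts of single skin cells were counted with a 3′ tag method (10x Genomics) in 4 libraries, 1 per group, and each library pooled neck and ear skin of 3 mice. All mice were female C57BL/6J mice of 6-8 weeks whose necks had been shaved beforehand, untreated mice included, per the labels' shared protocol. In the oxazolone libraries, mice were sensitised with 100 µL of 3% oxazolone, a contact hapten, then challenged from 7 days later with 1.0% oxazolone on alternate days, and skin was taken at day 10 or at day 16. In the MC903 library, mice received 1 nmol calcipotriol, a vitamin D analog that gives mice a dermatitis, in 100 µL each day, and skin was taken at day 9. Mice of the fourth library were untreated. No library of vehicle-treated skin was analysed here, so vehicle and agent cannot be told apart. Every library came from enzymatic digestion with collagenase and removal of dead cells, so the cells described are those that survived it. Since each group is a single library, no difference between groups was tested and none has a replicate check. Intervals are exact 95% intervals (Poisson for levels, conditional binomial for ratios, Clopper-Pearson for shares) and cover counting error only.

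The oxazolone day 10, oxazolone day 16, MC903 and untreated libraries held 73054242 to 119717836 transcripts (unique molecular identifiers, UMIs) in 4185 to 8708 barcodes, of which 3714 to 7723 cells were kept. Pairs of libraries shared 5 to 16 barcodes. Cells were clustered without the 8 genes and without 16 further contractile genes, so that the genes described did not choose the cells, and clusters were named from other markers. Fibroblast-like cells numbered 383 at oxazolone day 10, 344 at oxazolone day 16 and 1073 with MC903, against 1678 in untreated skin, and their median depths were 28407, 36140.5 and 25009 UMIs against 12881. Mural-like cells numbered 214, 51 and 215, against 258 in untreated skin, at median depths of 15223.5, 21039 and 13050 UMIs against 7549.5. All 4 fibroblast-like clusters carried Pdgfra in 91.4% to 94.4% of cells, against 1.19% and 2.82% in the mural-like clusters, where Rgs5, a mural cell regulator of G protein signalling, was found in 84.2% and 96.6% of cells. The fibroblast-like class was made up differently in each library. Cluster 18, led by Cxcl5, Saa3 and Tnc, held 232 and 249 of its cells at days 10 and 16 of oxazolone and 82 with MC903, against 1 in untreated skin. Cluster 16, led by Efemp1 and Pi16, held 647 untreated cells and 4 treated ones, all of oxazolone day 10. Cluster 6, led by Ccbe1, Slit2 and Postn, held 109, 28 and 446 treated cells against 625 untreated ones, and cluster 8, led by Cxcl13 and Inmt, 38, 67 and 545 against 405.

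Mural-like cells were the main holders of contractile transcripts in every library. They made up 2.77% of cells at oxazolone day 10, 0.690% at oxazolone day 16 and 5.79% with MC903, against 3.57% in untreated skin, but held 71.5%, 66.9% and 85.8% of all UMIs of the 8 genes in the treated libraries and 76.9% in the untreated one. Fibroblast-like cells held 8.36%, 10.6% and 5.01% of them, against 5.67% in untreated skin. Of the 11 to 14 cell classes with at least 50 cells in a library, the mural-like class had the highest level of each of the 8 genes in each of the 4 libraries. The fibroblast-like class came next for Acta2 at oxazolone day 10, with 146 CPM. At oxazolone day 16 the dermal papilla-like class was next to the mural-like one for Acta2, with 63.4 CPM, and in untreated skin the perichondrium-like class, with 21.9 CPM. For Myh11 the fibroblast-like class ranked 7, 9 and 7 from the top in the treated libraries, and 6 in untreated skin. The plot of levels by library shows both classes side by side.

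**Figure D1:**
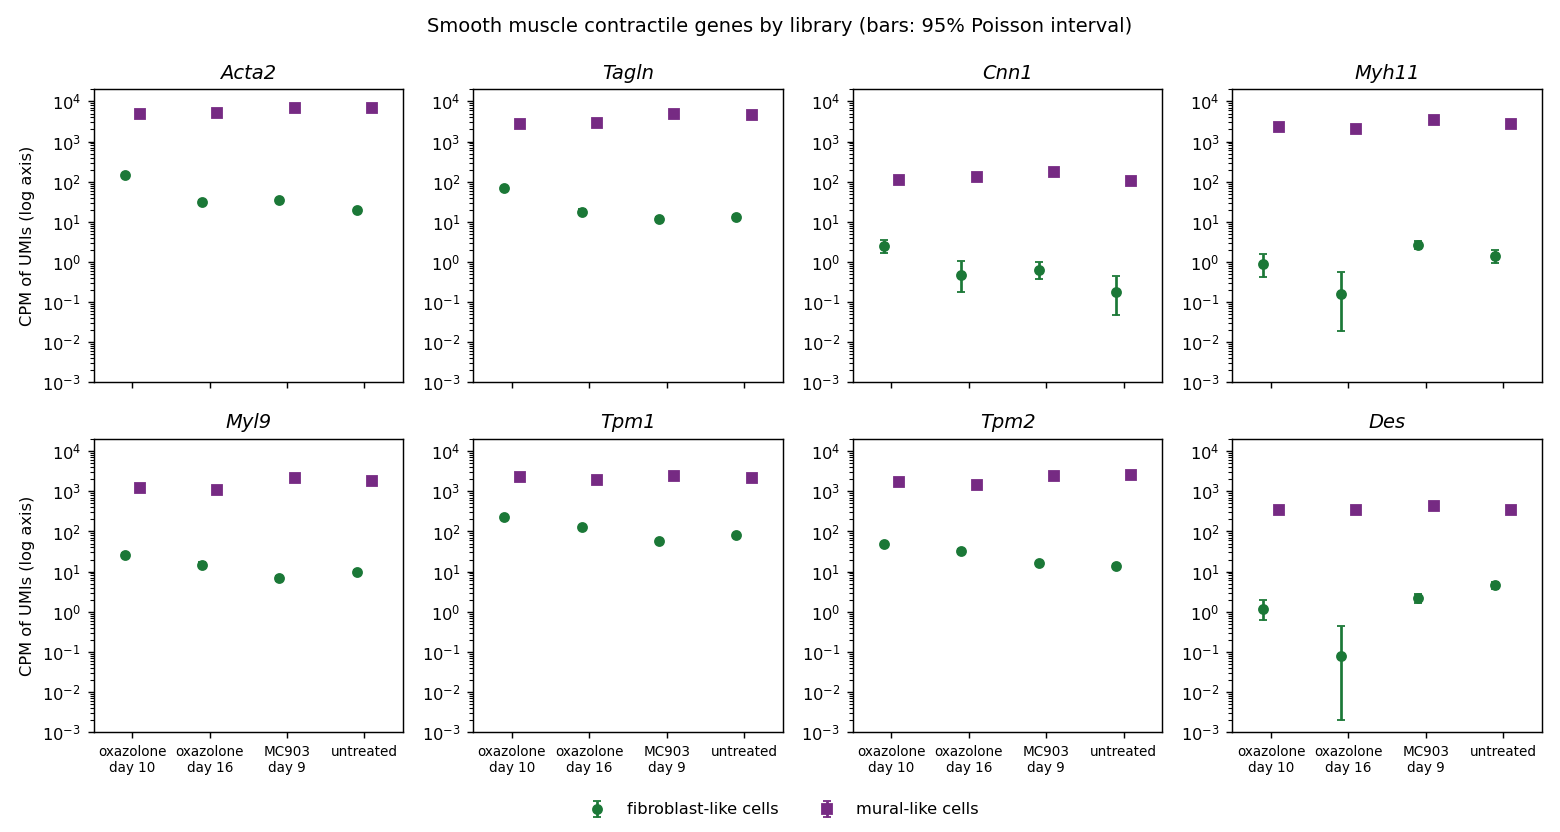
Level of each of the 8 contractile genes (CPM, log axis) in fibroblast-like cells (circles) and mural-like cells (squares) of the 4 libraries, with 95% Poisson intervals. The mural-like level lies above the fibroblast-like level for every gene and library, and the fibroblast-like levels of Acta2, Tagln and Cnn1 are highest at oxazolone day 10.

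Of the thin filament genes, Acta2 and Tagln stood at log2 ratios of 2.92 and 2.43 over untreated skin in fibroblast-like cells of oxazolone day 10. Cnn1 also stood higher there, on few UMIs. None of these 3 genes reached 2-fold in mural-like cells. Levels are given as CPM, the share of a gene among all UMIs of the class in the library on the usual scale for counts, and a gene was called higher or lower at a 2-fold ratio if the pair of libraries held at least 30 of its UMIs. In fibroblast-like cells Acta2 had 146 CPM (interval 139 to 153) at oxazolone day 10, 31.5 CPM at oxazolone day 16 and 34.9 CPM with MC903, against 19.3 CPM (17.5 to 21.2) in untreated skin. Tagln had 70.3, 17.9 and 11.7 CPM in the treated libraries, against 13.0 CPM in untreated skin. Cnn1, a calponin that marks differentiated smooth muscle, was counted 28 times at oxazolone day 10, 6 times at day 16 and 18 times with MC903, against 4 times in untreated skin, or 2.46, 0.480 and 0.630 CPM against 0.177 CPM. The oxazolone day 10 library was thus the highest of the 4 for all 3 genes, and its intervals did not overlap those of the untreated library. These intervals do not allow for uneven spread of UMIs over cells, and 1 cell held 366 of the 1655 Acta2 UMIs at oxazolone day 10. The log2 ratios of oxazolone day 10 over untreated skin were 2.92 for Acta2 (2.76 to 3.07), 2.43 for Tagln (2.24 to 2.63) and 3.80 for Cnn1 (2.29 to 5.77). Cnn1 passed the 30-UMI limit in this pair only through its 28 UMIs at oxazolone day 10, and 13 of these were in 1 cell. In mural-like cells Acta2 had 4920.4, 5086 and 6703 CPM in the treated libraries, against 6783 CPM in untreated skin, and the log2 ratio of Tagln at oxazolone day 10 was -0.75, the lowest of the 8 there.

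Tropomyosins and the myosin light chain moved in the same direction as Acta2 at oxazolone day 10, at smaller ratios. Tpm1, whose products also serve non-muscle stress fibres, had 226 CPM in fibroblast-like cells at oxazolone day 10, 129 at oxazolone day 16 and 57.7 with MC903, against 81.3 CPM in untreated skin. Tpm2, the beta tropomyosin, had 47.8, 33.0 and 15.9 CPM, against 13.8 CPM in untreated skin. Myl9, the regulatory light chain whose phosphorylation starts contraction, had 26.6, 14.7 and 6.89 CPM, against 9.76 CPM. At oxazolone day 10 the log2 ratios over untreated skin were 1.47 for Tpm1 (1.39 to 1.56), 1.80 for Tpm2 (1.59 to 2.00) and 1.45 for Myl9 (1.19 to 1.71). All 3 genes stood higher at day 10 than at day 16 in fibroblast-like cells, with intervals of the levels that did not overlap but cover counting error only.

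Myh11 and Des did not share this pattern. Myh11, the smooth muscle myosin heavy chain, was counted 10 times in fibroblast-like cells at oxazolone day 10, 2 times at day 16 and 75 times with MC903, against 31 times in untreated skin. Des was counted 13 times at oxazolone day 10, 1 time at day 16 and 63 times with MC903, against 104 times in untreated skin, or 1.14, 0.0800 and 2.20 CPM against 4.59 CPM. Of the 104 untreated Des UMIs, 73 lay in a finer cluster (resolution 2) led by Efemp1, Cdh4 and Pi16. Cluster 16, led by the same genes, held 647 untreated cells and 4 treated ones. In cluster 6, Des had 1.35 CPM at oxazolone day 10 and 1.97 CPM with MC903, against 2.80 CPM in untreated skin. In cluster 8 it had 3.17 CPM with MC903, against 1.58 CPM. The part of the makeup of the class in the Des level was not tested. The log2 ratio of oxazolone day 10 over untreated skin was -0.64 for Myh11, with an interval from -1.83 to 0.43 that holds 0, and -2.01 for Des (-2.96 to -1.17). Des turned to 0.33 at oxazolone day 10 and to 0.13 at day 16 when fibroblast-like cells were taken by a marker gate with no clustering, and these low counts in fibroblast-like cells stood against 344 and 343 CPM of Des in mural-like cells of the same libraries.

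Counted together, 6 of the 8 genes were at least 2-fold above untreated skin in fibroblast-like cells of oxazolone day 10 and 1, Des, was lower, where 9.03% of all 13936 measured genes were higher and 8.14% lower. The median log2 ratio of the 8 was 1.63, against -0.05 over all measured genes. Over the 7 genes measured at oxazolone day 16, 1 (Tpm2, log2 ratio 1.26) was higher and 2 (Myh11 and Des) were lower, against 9.88% and 13.6% of all genes, with a median of 0.59 against -0.16. Acta2 stood at 0.71 (0.51 to 0.91) and Tagln at 0.46 (0.20 to 0.72) at day 16, short of 2-fold. Myh11 at -3.10 (-6.21 to -1.12) and Des at -5.84 (-11.16 to -3.33) rested on 2 UMIs and 1 UMI at day 16. With MC903 no gene of 7 was higher and only Des, at -1.06 (-1.54 to -0.60), was lower, against 11.6% and 9.72% of all genes, with a median of -0.15 against 0.07. Acta2 with MC903 stood at 0.86 (0.69 to 1.02) but at -0.99 without the 5% of cells with the most contractile UMIs, and Tagln stood at -0.15 (-0.38 to 0.08). That Tagln ratio lay between -3.63, with 5% of the total taken off as free RNA, and 1.15, outside a fine cluster led by Lrrc15, over the alternatives tried. The 3 comparisons share the untreated library, so they are not independent of each other.

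**Figure D2:**
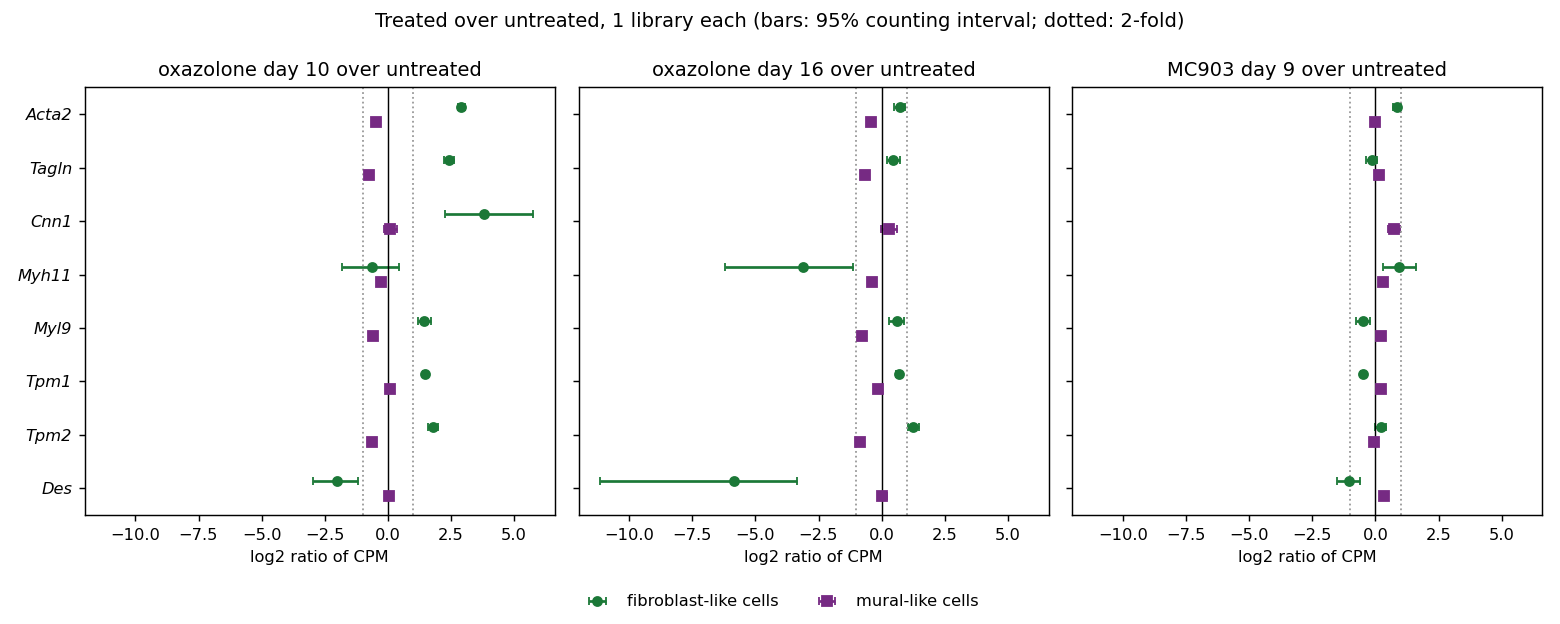
Log2 ratio of each treated library over untreated skin for the 8 genes in fibroblast-like and mural-like cells, with 95% conditional binomial intervals, where the pair of libraries held at least 30 UMIs. In fibroblast-like cells at oxazolone day 10 the ratios run from 3.80 for Cnn1 to -2.01 for Des, while the mural-like ratios at oxazolone day 10 lie between -0.75 and 0.10.

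Between the 2 oxazolone times, the actin and its partners were lower at day 16 in fibroblast-like cells. The log2 ratio of day 16 over day 10 was -2.21 (-2.37 to -2.05) for Acta2, -1.97 for Tagln and -2.36 for Cnn1. These were 3 of the 6 measured genes, against 7.83% of all genes lower, and none was higher, against 5.18%. Myl9 (-0.86), Tpm1 (-0.80) and Tpm2 (-0.54) were short of 2-fold. With MC903 over oxazolone day 10, 6 of 8 genes were lower, from -1.59 for Tpm2 to -2.58 for Tagln, against 12% of all genes, and Myh11 was higher at 1.58, against 13.4%. That Myh11 ratio turned to -0.21 when the 5% of cells with the most contractile UMIs were left out, and 53 of the 75 Myh11 UMIs of MC903 fibroblast-like cells were in 1 cell. These comparisons share the oxazolone day 10 library with the one over untreated skin.

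Mural-like cells held their contractile transcripts within 2-fold in every comparison. None of the 8 genes was called higher or lower at oxazolone day 10, against 3.64% higher and 3.97% lower of all measured genes, at oxazolone day 16, against 5.17% and 13.5%, or with MC903, against 3.55% and 6.92%. At oxazolone day 10 their log2 ratios over untreated skin ran from -0.75 for Tagln to 0.10 for Cnn1 and Tpm1, with a median of -0.37 against -0.06 over all genes. At day 16 they ran from -0.85 for Tpm2 to 0.30 for Cnn1, with a median of -0.40 against -0.27, and with MC903 from -0.08 for Tpm2 to 0.74 for Cnn1, with a median of 0.22 against -0.07. Myh11 had 2242, 2075 and 3354 CPM in the treated libraries, against 2699.9 CPM in untreated skin, and Des 344, 343 and 426 CPM, against 334 CPM. Day 16 over day 10 gave 0 calls either way, at -0.24 to 0.20, against 3.64% higher and 9.83% lower, and MC903 over oxazolone day 10 also gave 0, at 0.11 for Tpm1 to 0.87 for Tagln, against 5.05% and 8.43%. The 51 mural-like cells of oxazolone day 16 are the fewest of the 4 libraries.

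The mural-like class itself held 2 clusters with different contractile levels. Cluster 22 carried Notch3 in 96.9% of cells and the pericyte channel gene Kcnj8 in 2.39%, and its leading genes include Myh11, Tagln and Acta2, none of which had been used to make it. Cluster 25 carried Kcnj8 in 68.3% and its partner Abcc9 in 86.2% of cells, against 11.0% for Abcc9 in cluster 22. Acta2 had 7157, 9083 and 11158 CPM in cluster 22 of the treated libraries, against 10411 CPM in untreated skin, and 2043, 1971 and 1499 CPM in cluster 25, against 1179 CPM in untreated skin. Cluster 22 was thus 3.504, 4.61 and 7.44 times above cluster 25 for Acta2 in the treated libraries and 8.83 times in untreated skin. Myh11 was 5.62 to 9.64 times and Tpm1 2.63 to 3.61 times higher in cluster 22 over the 4 libraries, where 7.25% to 10.2% of all measured genes were at least 2-fold higher. Des was the exception, at 0.782, 0.910 and 1.52 times in the treated libraries and 1.08 times in untreated skin. Acta2 and Tagln had opposite signs in the 2 clusters at oxazolone day 10, a difference that was not tested. Acta2 stood at a log2 ratio over untreated skin of -0.54 in cluster 22 and 0.79 in cluster 25, and Tagln at -0.80 and 0.82, each with an interval off 0. None of 8 genes in cluster 22, against 4.5% higher and 4.27% lower of all measured genes, and none of 7 in cluster 25, against 3.64% and 4.85%, was past 2-fold. With MC903 over untreated skin, 0 of 8 genes were past 2-fold in cluster 22, against 3.69% higher and 5.87% lower, and in cluster 25 only Tagln of 7 was, with 1346 CPM with MC903, against 512 CPM in untreated skin (log2 ratio 1.40), against 4.42% higher and 7.41% lower. MC903 over oxazolone day 10 gave 0 calls in cluster 22, against 5.42% and 8.19%, and 0 in cluster 25, against 6.43% and 8.05%. Cluster 22 made up 128, 28 and 107 of the mural-like cells of the treated libraries, against 156 in untreated skin, and cluster 25 86, 23 and 108, against 102.

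Set against mural-like cells of the same library, fibroblast-like cells had lower levels of all 8 genes. Acta2 in fibroblast-like cells was 2.96% (2.81% to 3.11%) of the mural-like level at oxazolone day 10, 0.620% at oxazolone day 16 and 0.521% with MC903, against 0.284% in untreated skin. Tagln was at 2.62%, 0.634% and 0.239%, against 0.289%, and Tpm2 at 2.82%, 2.30% and 0.647%, against 0.532%. Tpm1 came nearest to the mural-like level, at 10.1%, 6.82% and 2.38%, against 3.88% in untreated skin. Myh11 was at 0.0392%, 0.00771% and 0.0782%, against 0.0507%. With a marker gate and no clustering, Myh11 was at 0.884% at oxazolone day 10 and 0.733% with MC903, against 0.311% in untreated skin. All 8 genes were at least 2-fold lower in fibroblast-like than in mural-like cells in each library, where 12.1%, 9.94% and 12.6% of measured genes were so in the treated libraries and 15.1% in untreated skin. Against mural cluster 25 alone, the one with less Acta2, fibroblast-like cells of oxazolone day 10 were at 7.12% for Acta2, 7.79% for Tagln, 18.6% for Cnn1, 9.11% for Tpm2 and 20.5% for Tpm1, and those of untreated skin at 1.63%, 2.55%, 7.29%, 4.21% and 9.41%. At 10-fold below the whole mural-like class, the counts were 7 of 8 at oxazolone day 10, where Tpm1 was the exception, and 8 of 8 in the other 3 libraries, against 2.09% to 3.03% of all genes.

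**Figure D3:**
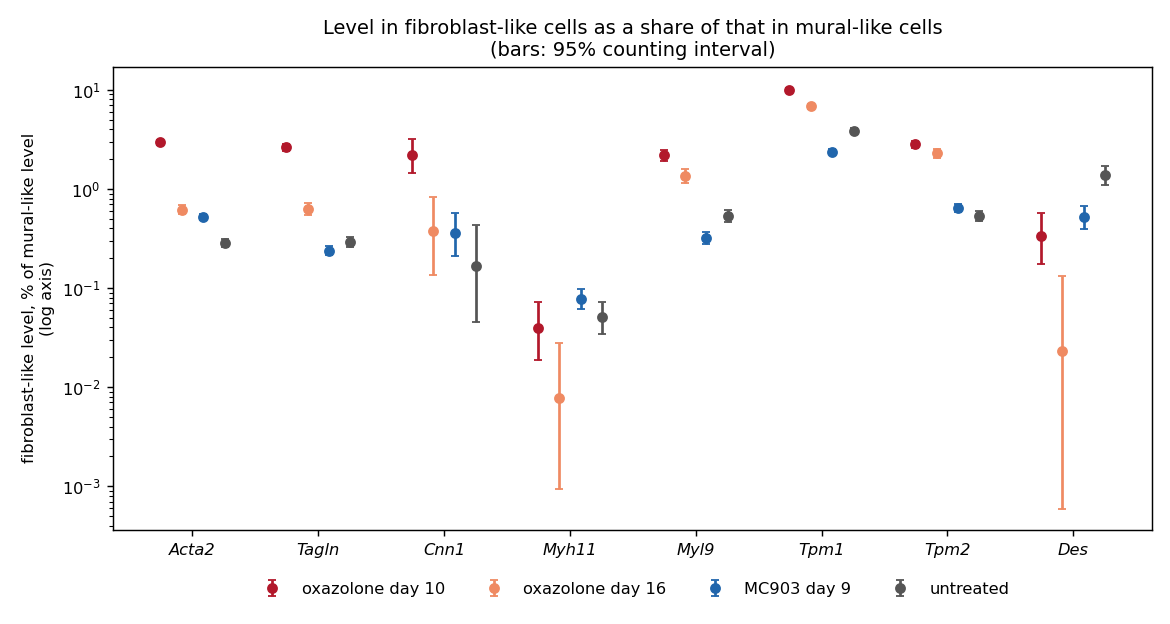
Fibroblast-like level as a percent of the mural-like level of the same library (log axis) for the 8 genes, with 95% intervals. Tpm1 lies highest and Myh11 lowest, and Acta2, Tagln and Cnn1 are at 2.19% to 2.96% at oxazolone day 10 and at 0.634% or less in the other libraries.

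The proportions among the 8 genes differed between the cell classes, with Myh11 the clearest case. For every 100 Acta2 UMIs, fibroblast-like cells held 0.604 Myh11 UMIs (0.289 to 1.11) at oxazolone day 10, 0.508 (0.0613 to 1.85) at day 16 and 7.52 (5.86 to 9.51) with MC903, against 7.11 (4.77 to 10.2) in untreated skin. Mural-like cells held 45.6, 40.8 and 50.04 in the treated libraries, against 39.8 in untreated skin. The intervals of the oxazolone fibroblast-like cells lie below that of the untreated ones, and the MC903 value rests on 1 cell, which held 53 of the 75 Myh11 UMIs. In untreated skin 1 cell held 12 of the 31 Myh11 UMIs, and the interval does not allow for such unevenness between cells. Tagln was nearer to the mural-like proportion, at 48.3, 56.9 and 33.6 per 100 Acta2 UMIs in fibroblast-like cells of the treated libraries, against 67.7 in untreated skin, and 54.5, 55.6 and 73.1, against 66.4, in mural-like cells. Tpm1 stood the other way, at 155, 411 and 165 in the treated fibroblast-like cells, against 422 in untreated ones, and 45.6, 37.3 and 36.2 in mural-like cells, against 30.9. These proportions compare genes within 3′ tag counts and give no order of transcript abundance between genes.

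**Figure D4:**
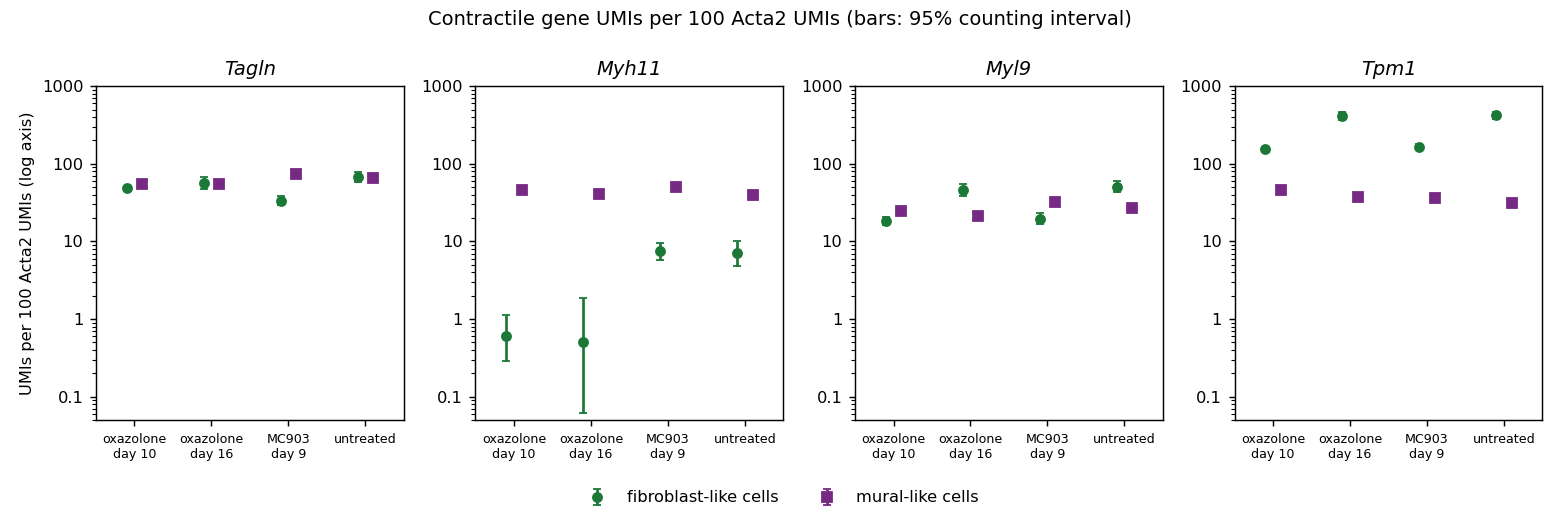
UMIs of Tagln, Myh11, Myl9 and Tpm1 per 100 Acta2 UMIs (log axis) in fibroblast-like cells (circles) and mural-like cells (squares) of the 4 libraries, with 95% intervals. Myh11 is at 0.508 to 7.52 in fibroblast-like cells and at 39.8 to 50.04 in mural-like cells, and Tpm1 is higher in fibroblast-like cells in every library.

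Within the fibroblast-like class the contractile transcripts were concentrated in few cells. The 5% of fibroblast-like cells richest in Acta2 held 75.9% of its UMIs at oxazolone day 10, 73.1% at oxazolone day 16 and 94.6% with MC903, against 81.7% in untreated skin, and the median cell had 0 Acta2 CPM in each library. In mural-like cells the richest 5% held 22.2%, 25.7% and 32.8%, against 21.6%, and the median cell had 4015, 4122 and 2705 CPM, against 4986 CPM in untreated skin. One fibroblast-like cell held 366 of the 1655 Acta2 UMIs of oxazolone day 10, 1 cell 70 of 394 at day 16 and 1 cell 356 of 998 with MC903, against 98 of 436 in untreated skin. Without that cell the Acta2 level was 114, 25.98 and 22.6 CPM in the treated libraries, against 14.9 CPM in untreated skin. Cnn1 had 13 of its 28 UMIs of oxazolone day 10 in 1 cell, and 1.32 CPM without it. Without the 1 cell with the most UMIs of the 8 genes in each library, an alternative added after the data were seen, the log2 ratio of oxazolone day 10 over untreated skin was 2.93 for Acta2, 2.45 for Tagln and 4.22 for Cnn1, and with MC903 that of Acta2 was 0.59. At oxazolone day 10 the cell left out was not the one with 13 of the 28 Cnn1 UMIs. That Cnn1 cell still counts in the 4.22, so this alternative does not bear on it.

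Counted as cells rather than as transcripts, the difference at oxazolone day 10 was also present. After each cell was thinned to 1000 UMIs, a UMI of Acta2 was found in 31 of 379 fibroblast-like cells (8.18%, 5.63% to 11.4%) at oxazolone day 10, in 8 of 331 (2.42%) at day 16 and in 8 of 1026 (0.780%) with MC903, against 25 of 1659 (1.51%, 0.978% to 2.22%) in untreated skin. Before thinning the shares were 42.3%, 25.3% and 10.1%, against 9.77%, at depths that differ between the libraries. T or innate lymphoid-like cells, which should lack Acta2, held a thinned Acta2 UMI in 0.613% of cells at oxazolone day 10, in 0 of 367 at day 16, which allows a share of up to 0.817%, and in 0.685% with MC903, against 0.476% in untreated skin, at a median of 6324, 10722 and 9769 UMIs per cell, against 5516. The MC903 share of fibroblast-like cells for Acta2 is thus within the interval of that background. Mural-like shares for Acta2 were 78.9%, 80.0% and 69.0%, against 73.9%. Tagln gave 6.86%, 3.32% and 0.390% in treated fibroblast-like cells, against 1.02% in untreated ones. Myh11 was found in 1 of 379, 0 of 331 (up to 0.906%) and 2 of 1026 thinned fibroblast-like cells, against 2 of 1659 in untreated skin. It was found in 0.818% of T or innate lymphoid-like cells at oxazolone day 10, so in that library Myh11 in fibroblast-like cells was not detectable above background at this depth. The Myh11 background of the other libraries is not given here. Thinning left out 4, 13 and 47 shallower fibroblast-like cells of the treated libraries, and 19 of the untreated one.

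Much of the Acta2 lay in a small subset of the fibroblast-like cells. At a finer clustering (resolution 2), looked at after the values were seen, fine cluster 35, led by Lrrc15, Chrm2, Coch and Col7a1, held 63 fibroblast-like cells (16.4%) at oxazolone day 10, 10 (2.91%) at oxazolone day 16 and 24 (2.24%) with MC903, against 162 (9.65%) in untreated skin. Lrrc15 encodes a membrane protein known from activated fibroblasts of wounds and tumours. Coch also leads cluster 17 of the dermal papilla-like class at the main clustering. Chrm2 and Col7a1 are among the leading genes of an unnamed cluster there, 37. What kind of cell fine cluster 35 holds was not tested. Fine cluster 35 held 67.0%, 32.0% and 30.5% of the Acta2 UMIs of fibroblast-like cells in the treated libraries, against 57.3% in untreated skin. Its Acta2 level was 1066 CPM at oxazolone day 10, 540.0 CPM at oxazolone day 16 and 810.1 CPM with MC903, against 164 CPM in untreated skin, and 366 of 1109, 70 of 126 and 202 of 304 of these UMIs were in 1 cell, against 98 of 250. The oxazolone day 16 level rests on its 10 cells. The log2 ratio of oxazolone day 10 over untreated skin within it was 2.70 (2.50 to 2.90) for Acta2, 1.91 for Tagln, 2.00 for Myl9 and 1.53 for Tpm1. Fibroblast-like cells outside it also stood higher at oxazolone day 10, with log2 ratios of 2.58 for Acta2, 2.63 for Tagln, 1.38 for Tpm1 and 1.91 for Tpm2, and of 0.76 for Myl9, short of 2-fold. Fine cluster 17, led by Postn, Mfap4 and Cilp, had 76.9 CPM of Acta2 in 70 cells at oxazolone day 10, against 18.2 CPM in 457 untreated cells. Fine cluster 14, led by Efemp1 and Pi16, had 3.00 CPM of Acta2 in 646 untreated cells.

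**Figure D5:**
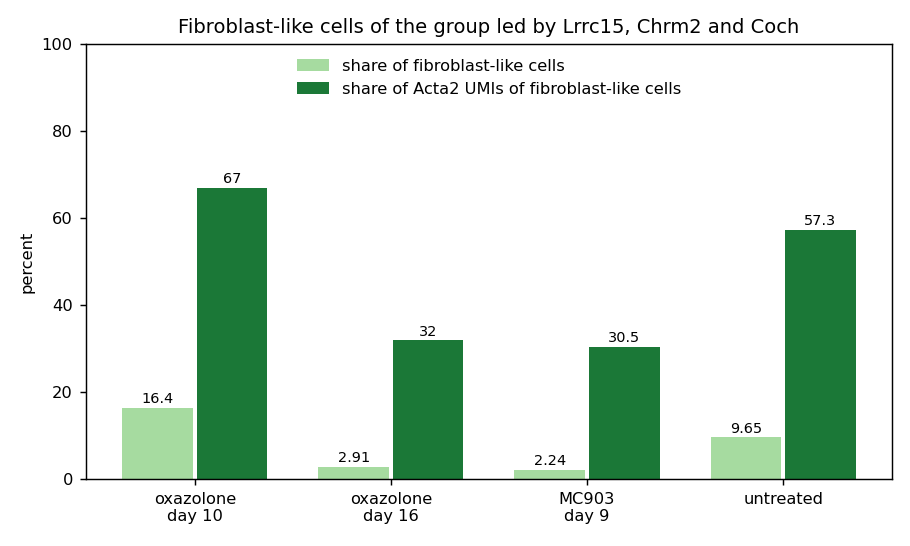
Percent of the fibroblast-like cells (light bars) and percent of their Acta2 UMIs (dark bars) that lay in the fine cluster led by Lrrc15, Chrm2 and Coch, by library. At oxazolone day 10 the cluster held 16.4% of the cells and 67.0% of the Acta2 UMIs, against 9.65% and 57.3% in untreated skin.

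The higher levels at oxazolone day 10 were also present within a single cluster of the fibroblast-like class. In cluster 6, the one with over 100 cells both at oxazolone day 10 and in untreated skin, Acta2 had 518 CPM at oxazolone day 10, against 45.2 CPM in untreated skin (log2 ratio 3.52), Tagln 258 against 32.0 CPM (3.01) and Myl9 86.9 against 14.4 CPM (2.60). Tpm1 (342 against 86.0 CPM, 1.99) and Tpm2 (132 against 27.8 CPM, 2.25) completed 5 of 5 measured genes, where 4.79% of all measured genes were higher and 8.03% lower. Of the 1655 Acta2 UMIs of all fibroblast-like cells at oxazolone day 10, 1109 lay in fine cluster 35, 366 of them in 1 cell. The part of fine cluster 35, of single cells and of makeup within cluster 6 in these levels was not tested. With MC903, 0 of 7 genes were higher and 4 lower than in untreated skin in cluster 6 (Tagln -2.05, Myl9 -2.34, Myh11 -1.53, Tpm2 -1.11), against 9.44% and 11.7% of all genes, and 12 of the 19 untreated Myh11 UMIs there were in 1 cell. MC903 over oxazolone day 10 gave 0 higher and 5 lower of 6 in cluster 6, against 15.7% and 11.9%. In cluster 8, 4 of 7 were higher (Acta2 1.44, Tagln 2.14, Myh11 2.84, Des 1.01), against 8.46%, and 0 were lower, against 9.58%. These 4 rested on 1 MC903 cell, which held 194 of the 225 Acta2, 101 of the 128 Tagln, 53 of the 64 Myh11 and 33 of the 36 Des UMIs. Without the cell richest in the gene in each library, a comparison added after the data were seen, cluster 8 had 2.73 CPM of Acta2 with MC903, against 6.12 CPM in untreated skin, 2.38 against 1.58 CPM of Tagln, 0.970 against 0.592 CPM of Myh11 and 0.265 against 0.988 CPM of Des, so that none of the 4 was 2-fold higher. Within cluster 18, Acta2 had 24.3 CPM at day 16, against 59.8 CPM at day 10 (-1.30), the only one of 5 measured genes lower there, against 7.76% of all genes, and 0 were higher, against 4.95%. Cluster 8 gave 0 calls of 4 at oxazolone day 16 over untreated skin, against 4.09% higher and 9.46% lower, and cluster 18 gave 0 of 5 with MC903 over oxazolone day 10, against 6.05% and 11.1%.

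RNA of mural cells was looked for beside these levels. The 15 mural marker genes other than the 8 summed to 210, 171 and 195 CPM in fibroblast-like cells of the treated libraries, against 370 CPM in untreated skin, or 1.61%, 2.26% and 2.14% of the mural-like sum, against 3.85%. Higd1b was at 0 at oxazolone day 10 and Gja4 at oxazolone day 16 and with MC903, while no marker was at 0 in untreated skin. Rgs5 in fibroblast-like cells was at 0.0278%, 0.0263% and 0.0212% of the mural-like level, against 0.0686%. Pdgfrb, which fibroblasts also express, made up 131 CPM of the sum at oxazolone day 10, against 169 CPM in untreated skin. The part of mural RNA in the contractile levels was not tested. Among the 177 oxazolone day 10 and 524 untreated fibroblast-like cells with no UMI of 8 mural genes, the log2 ratio was 3.34 for Acta2, 2.49 for Tagln, 1.27 for Tpm1, 1.5 for Tpm2 and 0.58 for Myl9, so that 4 of the 5 measured genes were higher. Of 13 measured mural identity genes, 2 were higher and 4 lower in fibroblast-like cells of oxazolone day 10 than in untreated skin (median log2 ratio -0.46), 2 were higher and 6 lower at day 16, and 1 was higher and 3 lower with MC903, against 9.03% and 8.14%, 9.88% and 13.6%, and 11.6% and 9.72% of all genes in the same 3 comparisons. Mcam, an adhesion molecule of vessel walls, stood at 2.29 at oxazolone day 10 with 4.31 CPM, against 0.884 CPM in untreated skin, Rgs4, a regulator of G protein signalling, had 2.46 CPM, against 0.530 CPM, and Ndufa4l2, a mitochondrial protein of pericytes, at -2.33 with 21.5 CPM, against 108 CPM. Skeletal muscle markers, 11 genes, summed to 3.43, 2.16 and 31.8 CPM, against 4.90 CPM, with 6, 8 and 3 genes at 0, against 3, and whether skeletal muscle RNA has a part in the Des level was not tested.

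Contractile transcripts were also counted in keratinocyte-like cells, where Acta2 had 35.4 CPM at oxazolone day 10, 25.2 CPM at oxazolone day 16 and 26.7 CPM with MC903, against 8.42 CPM in untreated skin. Tagln had 62.8, 26.4 and 15.5 CPM, against 8.46 CPM, and Tpm2, which keratinocytes also use in their cytoskeleton, 123, 219 and 156 CPM, against 59.3 CPM. Of 7 measured contractile genes, 4, 5 and 4 were at least 2-fold higher in the treated libraries than in untreated skin, against 11.0%, 9.99% and 4.69% of all measured genes, and 1, 2 and 2 were lower, against 7.62%, 15.3% and 17.3%. The class held 696, 79 and 96 cells in the treated libraries, against 1725 in untreated skin, and different clusters held most of it. Cluster 9, led by Krt17, Lgr5 and Lhx2, held 512, 70 and 6 of these cells, against 334, cluster 14, led by Akr1c18 and Fgfbp1, 111, 4 and 85, against 562, and cluster 13, led by Defb6 and Cst6, 43, 2 and 3, against 724. The part of this makeup in the levels was not tested.

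Single-cell correlations describe how the genes moved together within a library. Across fibroblast-like cells, Pearson's r of Acta2 with Tagln was 0.71 at oxazolone day 10, 0.54 at oxazolone day 16 and 0.68 with MC903, against 0.48 in untreated skin, and across mural-like cells it was 0.86, 0.92 and 0.86, against 0.90. Acta2 with Myh11 gave 0.72, 0.70 and 0.74 in mural-like cells, against 0.79. Acta2 with Des gave -0.03, 0.20 and 0.22 in mural-like cells, against 0.04. These r describe cells of 1 library that share its depth and are sparse counts, so low values carry little. High values in fibroblast-like cells can rest on few cells: with MC903, 1 cell held 356 of the 998 Acta2 UMIs.

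The wider programme around the 8 genes moved unevenly at oxazolone day 10, again in the fibroblast-like class. Of 18 measured genes of a myofibroblast and transforming growth factor beta list, 11 were higher and 0 lower than in untreated skin, with a median log2 ratio of 1.35, where 9.03% of all measured genes were higher and 8.14% lower, with a median of -0.05. Among them Tnc, a wound matrix glycoprotein, had 3749 CPM at oxazolone day 10, against 292 CPM in untreated skin, and Inhba, a subunit of activin A, 129.7 against 16.6 CPM. Tnc is also a leading gene of cluster 18, which held 232 cells at oxazolone day 10 and 1 in untreated skin. The part of the makeup of the class in these list counts was not tested. Of 14 other contractile machinery genes, 3 were higher and 2 lower (median -0.08): Actg2, the enteric smooth muscle actin, had 9.32 CPM at oxazolone day 10, against 0.751 CPM, and Ppp1r14a, an inhibitor of myosin phosphatase, 4.48 against 24.0 CPM. Csrp1, a LIM protein of actin bundles, stood at a log2 ratio of 1.31. The last of the 3 higher genes, Cald1, which encodes caldesmon and is named here for completeness after its value was seen, stood at 1.11. Actg2 reads can resemble those of Acta2, and the sources used here do not say how shared reads were counted. Of 17 non-muscle cytoskeleton genes, 2 were higher and 0 lower, with Actn1, an actin crosslinker of stress fibres, at 103 against 23.2 CPM. Of 19 regulators of the contractile programme, 0 were higher and 2 lower (median -0.03), the lower count being near the share over all genes: Klf4, a repressor of smooth muscle genes, had 156 CPM at oxazolone day 10, against 568 CPM in untreated skin, and Tgfb2, a ligand, 41.2 against 134 CPM.

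At oxazolone day 16 and with MC903 the same lists gave other counts. At day 16, 9 of 18 myofibroblast genes were higher and 1 lower (median 0.97), with Tnc at a log2 ratio of 3.14 and Inhba at 2.18, while 0 of 19 regulators were higher and 3 lower. Over all measured genes at day 16, 9.88% were higher and 13.6% lower, with a median of -0.16, so the regulators' count of lower genes is near that background. Myocd, the coactivator of serum response factor that drives smooth muscle genes, was 1 of these 3, with 4 UMIs at day 16, against 79 in untreated skin (-3.45). With MC903, 3 of 18 myofibroblast genes were higher and 6 lower (median -0.15, against 0.07 over all measured genes). Lox, which crosslinks collagen, was 1 of the 3 higher, with 1039 CPM, against 161 CPM in untreated skin. No machinery gene of 15 was higher with MC903 and 3 were lower, with Ppp1r14a at -4.97 the farthest. Non-muscle genes gave 0 higher and 5 lower of 17 with MC903, with Myh10, a non-muscle myosin heavy chain, at -1.31. Over all measured genes with MC903, 11.6% were higher and 9.72% lower.

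Serum response factor binds CArG boxes in the promoters of many contractile genes, and the sequences of those found are shown as a description. Of the 8 genes, 6 matched the promoter table of RefSeq (GRCm38.p6, 250 bases before to 50 bases after each gene start). Tagln and Myh11 were not among them. Distances below count from the RefSeq gene start, which for Acta2 and Myl9 differs from the GENCODE vM21 start given in the opening. Acta2 and Myl9 each held 2 CArG boxes, the 10-base capitals, shown 5′ to 3′ on the strand of the gene with 10 bases on each side.
Acta2, chr19:34255438-34255467, minus strand, 84 bases before the gene start: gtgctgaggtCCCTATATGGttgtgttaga
Acta2, chr19:34255388-34255417, minus strand, 34 bases before the gene start: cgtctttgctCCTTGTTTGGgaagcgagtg
Myl9, chr2:156775293-156775322, plus strand, 161 bases before the gene start: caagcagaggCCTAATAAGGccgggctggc
Myl9, chr2:156775355-156775384, plus strand, 99 bases before the gene start: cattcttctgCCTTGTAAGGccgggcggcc
The first Myl9 box has no G or C inside and the other 3 have 1. The Acta2 boxes fall in an untranslated exon of Acta2 in the GENCODE vM21 annotation, and the Myl9 boxes in no annotated feature. Of 32851 promoters of that length, 1.63% hold a box with no G or C inside and 9.98% one with at most 1. Cnn1, Des, Tpm1 and Tpm2 held no box in this window, and of these Cnn1, Tpm1 and Tpm2 stood higher and Des lower in fibroblast-like cells of oxazolone day 10. The TEAD motif CATTCC, searched on both strands and found in 14.7% of promoters, was in the promoters of Acta2 and Tpm1. A match is a description of the letters and was not tied to the levels.

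Across 48 points of a class in a library, the genes whose log2 levels were most like the mean of the 8 were Trarg1, Slc2a4, Actg2, Npy1r, Map3k7cl, Lrrc10b, Nrip2 and Foxs1 of 14257 genes, with Pearson's r of 0.94 to 0.92. The points share libraries and the mural-like class lies far from the rest. By Spearman's correlation, none of these 8 was among the 8 nearest. Slc2a4 encodes the insulin-responsive glucose transporter and Npy1r a receptor for neuropeptide Y, and their fibroblast-like levels were 1.23, 0.480 and 0.455 CPM, against 0.707 CPM, for Slc2a4 and 1.93, 4.00 and 2.41 CPM, against 4.82 CPM, for Npy1r.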

How the data were processed

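The authors deposited raw UMI counts per gene and barcode for 4 libraries, whose barcodes they had already called as cells. Per the file headers these counts came from Cell Ranger 7.2.0 (oxazolone day 10, untreated) and 8.0.0 (oxazolone day 16, MC903), while the submitters' processing notes name version 8.0 and mm10 for all 4. In every comparison of oxazolone day 16 or MC903 with untreated skin or oxazolone day 10, condition and version cannot be told apart. Whether intronic or multi-mapped reads were counted is not given in the sources used here.

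From these counts, cells were kept if they held 300 genes or more and no more than 15% mitochondrial UMIs, which left out 53 to 407 barcodes per library. The cells with the highest Scrublet scores were removed as doublets at 0.8% per 1000 barcodes (129 to 578 cells). Clusters came from scanpy 1.11.5 in Python 3.11.15 (2000 variable genes, 30 principal components, 15 neighbours weighted by shared neighbours, leidenalg 0.10.2 at resolution 1, scikit-learn 1.9.0, numpy 2.4.6), without integration and without 24 contractile genes. This gave 41 clusters in 18 named classes and 6 unnamed clusters. A cluster took a name ending in "-like" from at least 3 markers, each in 20% of its cells, with a mean log2 ratio of at least 1 over the average cluster and a margin of 0.5. UMIs were summed per class and library. Ratios needed 50 cells per class and 30 UMIs in the pair, with a floor of 3 UMIs, and intervals are exact (scipy 1.17.1). Classes and clusters of at least 20 cells were given levels, the finer clusters also below that. Within a library, cells are not replicates, so no p-value was computed. Named genes are the 8 members, the 8 genes most like them, and per list and comparison the 4 measured genes with the largest log2 ratio in size. A result that needs an item withheld for evaluation is not reported here.

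Tested on simulated counts, the ratio step called 98% to 100% of changed genes the right way. Those counts had Poisson spread only, for genes with at least 100 UMIs in the pair and log2 changes of 1.5 or 2 in size. Sparser genes, such as Cnn1 in fibroblast-like cells, and the uneven spread of UMIs over cells were not covered. The members and gene lists were chosen with earlier results of these data known, so they are no independent support. The finer clusters and the alternatives named as added were chosen after the data were seen.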

Additional observations from a re-analysis of the deposited data

Results flagged for a closer look

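Some contractile genes were past 2-fold in fibroblast-like cells while they stood on the other side of 0 in mural-like cells of the same libraries, with both intervals off 0. The difference between the log2 ratios of the 2 classes was not tested, since each group has 1 library, and both ratios share the untreated library.

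For oxazolone day 10 over untreated skin, the log2 ratio in fibroblast-like cells minus that in mural-like cells was 3.38 for Acta2, with 2.92 in fibroblast-like and -0.46 in mural-like cells. It was 3.18 for Tagln (2.43 and -0.75), 2.03 for Myl9 (1.45 and -0.59) and 2.41 for Tpm2 (1.80 and -0.61). At oxazolone day 16 only Tpm2 met the same condition, with a difference of 2.11 (1.26 in fibroblast-like and -0.85 in mural-like cells). With MC903 only Des did, with a difference of -1.41 (-1.06 in fibroblast-like and 0.35 in mural-like cells), and 33 of the 63 Des UMIs of the MC903 fibroblast-like cells were in 1 cell. Of the 104 Des UMIs of untreated fibroblast-like cells, 73 lay in the finer cluster led by Efemp1 and Pi16.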

How the results depend on the processing

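No paired analysis was possible because each group has 1 library. The count of 6 contractile genes above untreated skin in the fibroblast-like cells of oxazolone day 10 lay between 4 and 7 under all 15 alternatives, with 4 among cells without mural UMIs and, added after the data were seen, outside the fine cluster led by Lrrc15. All 8 genes were at least 2-fold lower in fibroblast-like than in mural-like cells under the alternatives run. Smaller counts moved, and the cause was not tested.

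Genes lower at oxazolone day 10 over untreated skin numbered 2 with no doublets removed or at 1.5-fold, and 0 with the marker gate or among cells without mural UMIs. Genes higher at day 16 numbered 0 with no doublets removed, 2 with at most 10% mitochondrial UMIs, the mean of single-cell CPM, cells without mural UMIs, the 5% richest cells left out or no minimum count, 3 with 5% free RNA taken off or outside the fine cluster, and 4 at 1.5-fold. Genes lower at day 16 numbered 0 with the marker gate or without mural UMIs, and 1 with free RNA taken off or the richest cells left out. With MC903, genes higher numbered 2 at resolution 2, with the marker gate, at 1.5-fold or outside the fine cluster, and 1 with the mitochondrial limit, the single-cell mean or no minimum count. Genes lower with MC903 numbered 2 with clusters from all variable genes or the mitochondrial limit, 0 at resolution 2 or with the marker gate, and 3 with free RNA taken off, without mural UMIs or without the richest cells. Day 16 over day 10 gave 5 lower with the single-cell mean, no minimum count or 1.5-fold. MC903 over day 10 gave 2 higher at resolution 2 or 1.5-fold and 0 with all variable genes, the mitochondrial limit, the marker gate, without mural UMIs or without the richest cells. In mural-like cells, 1.5-fold gave 3 lower at oxazolone day 10, 3 lower at day 16, 1 higher with MC903 and 3 higher for MC903 over day 10.

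Myh11 for MC903 over oxazolone day 10 reversed to -0.19 with clusters from all variable genes and to -0.21 without the richest cells, and Des with the marker gate to 0.33 at oxazolone day 10 and 0.13 at day 16. The share of fibroblast-like cells with an Acta2 UMI was 5.22% at oxazolone day 10, against 0.775% in untreated skin, at 500 UMIs per cell, and 12.1% and 1.94% (MC903), against 2.45%, at 2000. None of the 8 most like genes was kept by Spearman's correlation. With at least 100 UMIs, 0 mural identity genes were higher at oxazolone day 10 or day 16, where 2 each were with 30. The marker gate and the richest-cell alternative gave no mural-like values at day 16, with 36 and 48 cells left. Depth limits Cnn1, Myh11 and Des in fibroblast-like cells, at 1 to 104 UMIs per library.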

Other observations

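Outside the fibroblast-like and mural-like cells, further classes differed in contractile transcripts. In dermal papilla-like cells Acta2 had 45.5, 63.4 and 243 CPM in the treated libraries, against 9.35 CPM in untreated skin, and 39.7, 35.7 and 42.2 CPM, against 7.62 CPM, without the 1 cell richest in Acta2. The class was made up differently in each library: cluster 26, led by Dcc and Hhip, held 188, 55 and 18 of its cells in the treated libraries, against 21 in untreated skin, and cluster 17, led by Coch and Igfbp3, 154, 23 and 178, against 277.

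Neutrophil-like cells carried Acta2 at 24.2, 23.6 and 22.9 CPM in the treated libraries, beside 4.46, 3.06 and 4.57 CPM of Tagln and 1.38, 1.07 and 2.91 CPM of Myh11. The untreated library held 23 such cells, with 0 Acta2 UMIs. Schwann-like cells had 281 CPM of Acta2 with MC903, where 399 of 406 UMIs were in 1 cell, and 4.97 CPM without it. An unnamed cluster, 31, whose leading genes include Pax7 and Myf5, the transcription factors of skeletal muscle precursors, had 345 CPM of Acta2 at oxazolone day 10 and 149 CPM with MC903, against 163 CPM in untreated skin, and 257 and 139 CPM of Des, against 291 CPM. Its Myh11 was at 2.92 CPM at oxazolone day 10 and 194 CPM with MC903, and listed at 0 in untreated skin.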
